A study of Drosophila melanogaster with 66 samples.

Results

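In sucrose gradients run with EDTA, which takes ribosomes off mRNA, most mRNAs should leave the heavy fractions. The measurements described here ask which mRNAs of Drosophila embryos were then relatively heavy or light compared with the other mRNAs. Of the 66 arrays of the series, 6 were used for this: the pools of fractions 10-12 and of fractions 1-5 of the EDTA gradients of embryos aged 0-2 hours, 4-6 hours or 8-10 hours. They were chosen by their labels alone. Both pools of a period came from 1 gradient, so they form 3 pairs.

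The embryos were Canton S, a wild-type strain, in every group. EDTA-treated embryos were lysed in a buffer with EDTA and without added magnesium and sedimented through sucrose made with EDTA, whereas the untreated ones were lysed and sedimented with magnesium. Cycloheximide, which holds ribosomes on mRNA, was in the lysis buffers of both. Each period had 1 EDTA gradient measured as 4 pools (fractions 1-5, 6-7, 8-9 and 10-12), 2 untreated gradients with 1 array for the pool of fractions 1-5 and 1 for every later fraction, and 2 arrays of unfractionated RNA.

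An mRNA sediments by the mass and shape of the whole particle it is in, including bound proteins and any ribosomes. Ribosomes need magnesium to hold their subunits and mRNA together, so EDTA separates translated mRNAs from polysomes, while particles that are held together by protein or RNA can stay large. Early fly embryos carry maternal mRNAs in such particles, among them bicoid (bcd) and oskar (osk), which are localised to opposite ends of the egg and are bound by proteins that control where and when they are translated.

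Levels are log2 RMA signals, and a difference is the log2 level in fractions 10-12 minus that in fractions 1-5 of the same gradient. RMA sets the arrays to a common distribution, so a difference is relative to the rest of the mRNAs in both pools and does not give the share of its molecules that stayed heavy. An mRNA is called heavier with EDTA when its mean difference over the 3 gradients was above 0, and lighter when it was below 0, with an adjusted p under 0.05 in limma. The periods serve as replicates because each had 1 EDTA gradient. An exact permutation test on 3 pairs cannot go below a two-sided p of 0.25, so single values were not tested that way. As these are whole embryos, fewer cells of a type and less RNA per cell cannot be told apart in any change of level between periods.

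Among the 12 EDTA arrays, medians ran from 4.59 to 5.13. The array of fractions 6-7 at 8-10 hours stood apart, with the highest median and a mean correlation of 0.88 with the other arrays of its gradient, where the other 11 arrays had 0.93 to 0.99. In the comparison of fractions 10-12 with 1-5 that array served only to choose which probe sets were bright enough to test. Genes that embryos do not use stayed near background, as the 112 odorant and gustatory receptors had a median level of 3.72. The list of proteasome subunits was relatively heavy without EDTA and no longer so with it. Its median difference was 1.37 in untreated gradients and -0.16 with EDTA. In the test of the change between treatments 23 of 26 were lower with EDTA, beside 20.4% of all tested probe sets.

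With EDTA, 961 of 9384 tested probe sets were heavier, which is 10.2% of them, and 382 were lighter, which is 4.07%. Counted by the brightest probe set of each of 7283 tested genes, 727 genes were heavier and 302 lighter. Without a single gene symbol were 138 of the heavier probe sets and 57 of the lighter ones. The median difference of heavier probe sets was 0.82, or 1.77-fold, and 313 exceeded a difference of 1 and 28 a difference of 2. Lighter probe sets had a median of -0.66, or 1.58-fold, 43 lay beyond a difference of 1 and none beyond 2 in size. Each of these 961 and 382 probe sets had the same sign in the 3 gradients. That follows largely from the calls, which rest on the mean and spread of the same 3 differences. Over all tested probe sets the median difference was 0.00.

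These counts depended on which gradients were kept. Without the 4-6 hour gradient no probe set passed in either direction in limma, although 1794 had an unadjusted p under 0.05, against 3216 with all 3. Without the 8-10 hour gradient 309 were heavier and 56 lighter, and without the 0-2 hour gradient 977 and 484. Quantile normalising the 6 arrays again gave 605 heavier and 524 lighter, so heavier probe sets made up 53.6% of those called instead of 71.6%.

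The 0-2 hour gradient held the smaller differences. Its tested probe sets had an SD of 0.37, against 0.62 at 4-6 hours and 0.60 at 8-10 hours, and 203 of them exceeded a difference of 1, against 645 and 634. Across the 9384 probe sets, which are not replicates of each other, the differences of the 0-2 hour gradient correlated with r = 0.61 with 4-6 hours and 0.52 with 8-10 hours, and those of the later periods with r = 0.75. With 1 gradient per period, the periods were not tested against each other.

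bcd, which encodes the anterior morphogen, was the named gene with the largest difference. Its level in fractions 1-5 was 9.57 at 0-2 hours, 5.70 at 4-6 hours and 5.33 at 8-10 hours, and in fractions 10-12 it was 12.38, 9.30 and 8.64. Within each gradient the heavy pool was far above the light one, by 2.81, 3.61 and 3.30, although the level itself was far lower after the first period. The mean difference was 3.24 ± 0.17 (SE, n = 3 gradients), or 9.46-fold, with an adjusted p of 0.00624. A second bcd probe set had a mean difference of 2.07 and also passed (adjusted p = 0.0286).

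The middle pools of bcd were all above fractions 1-5. Levels in fractions 6-7 and 8-9 were 13.39 and 12.76 at 0-2 hours, 8.86 and 8.72 at 4-6 hours and 7.45 and 8.65 at 8-10 hours. At 0-2 hours both exceeded the heavy pool, at 4-6 hours both were under its 9.30, and at 8-10 hours fractions 6-7 were under its 8.64 and fractions 8-9 close to it. The low value at 8-10 hours is from the array that stood apart. In untreated gradients the difference of bcd was 3.04 at 0-2 hours, 2.68 at 4-6 hours and -0.47 at 8-10 hours (means of 2 gradients). The EDTA difference exceeded the untreated one by 1.49 on average, which did not pass the test (adjusted p = 0.0769).

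osk, which organises the germ plasm at the posterior pole, was heavier with EDTA in all 3 of its probe sets. The brightest had levels in fractions 1-5 of 12.01, 6.89 and 6.48 over the periods and in fractions 10-12 of 13.10, 9.86 and 9.53. The heavy pool was above the light one in every gradient, by 1.09 at 0-2 hours and by 2.96 and 3.05 later, for a mean of 2.37 ± 0.38 (adjusted p = 0.0169). Without EDTA the order was the opposite, at -0.48, -1.72 and -2.20. The change between treatments was 3.84, with an adjusted p of 0.000885, the largest among the genes named by the rule.

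**Figure D1:**
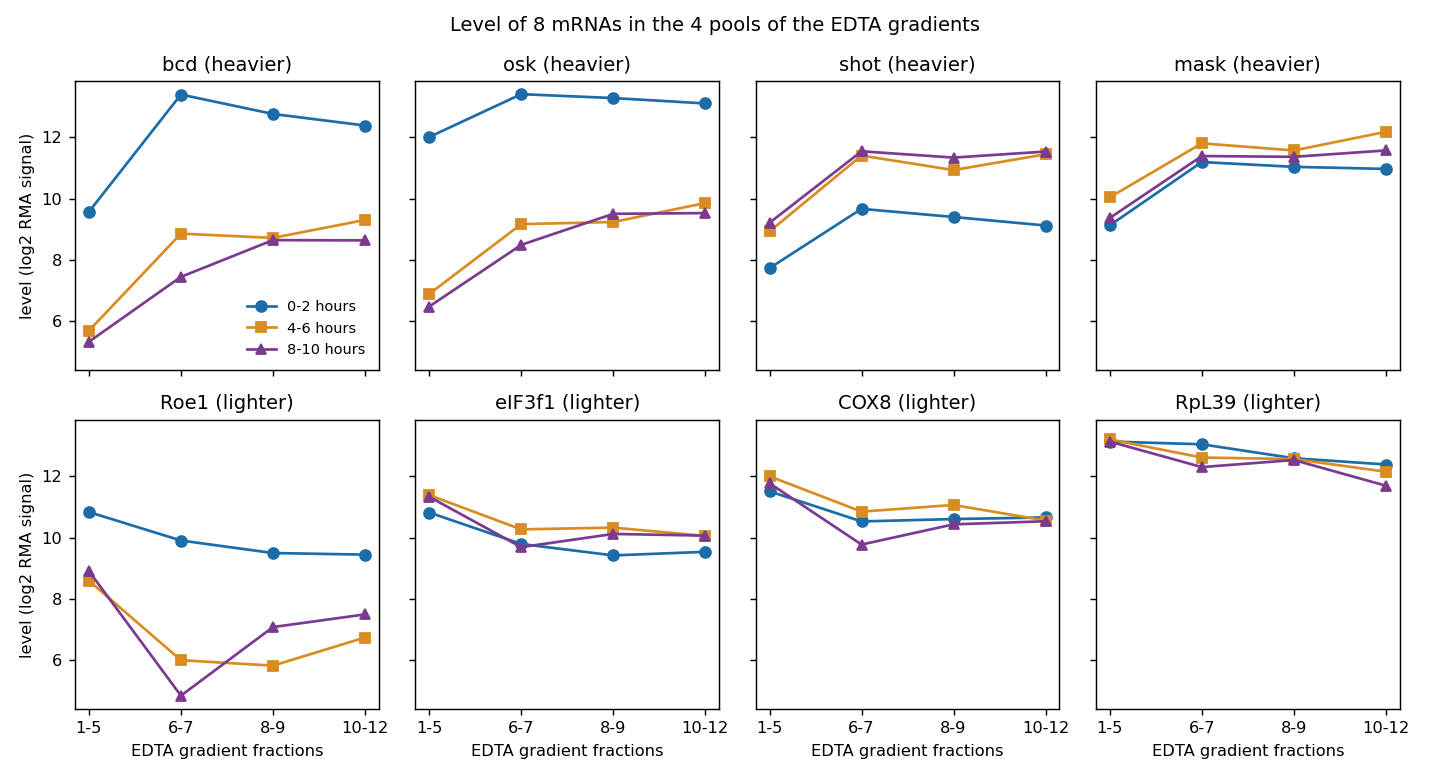
Log2 RMA level (vertical axis) of 8 mRNAs in the 4 pools of the EDTA gradients (horizontal axis, fractions 1-5 to 10-12), with 1 line per period and 1 array per point. In the top row the level is lowest in fractions 1-5 and differs less among the other pools, as for bcd at 0-2 hours with 9.57 against 12.38 to 13.39, and in the bottom row it is highest in fractions 1-5.

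Fractions 6-7 and 8-9 entered the calls only through the choice of bright probe sets, and the called genes as a group had the same shape. Fractions 1-5 are 1 side of the calls, so their place below or above the other pools is partly fixed by the choice. The 727 heavier genes had a median level of 8.36 in fractions 1-5 at 0-2 hours and of 9.07 to 9.13 in the other pools. At 4-6 hours the medians were 8.19 against 8.74 to 9.12, and at 8-10 hours 8.25 against 8.37 to 9.20, with the lowest of these in the array that stood apart. Lighter genes had medians of 9.34, 9.41 and 9.31 in fractions 1-5 and of 7.46 to 8.70 in the other pools. In a separate test of fractions 8-9 against 6-7 of the same gradients, 0 probe sets passed in limma and 235 had an unadjusted p under 0.05. This test includes the array that stood apart, and without the 8-10 hour gradient 0 passed as well.

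The gene lists were chosen with earlier results of these data known, so their shares of calls are not independent of the data. Heavier calls were frequent in a list of localised and germ plasm mRNAs. Of its 19 tested members, 8 were heavier and none lighter, beside 10.2% of all probe sets heavier, and the list's median difference was 0.67. Besides bcd and osk these were nanos (1.14), which encodes a translational repressor of the posterior, orb (1.47), which encodes an RNA-binding protein of the germ line, tud (1.12), whose Tudor protein builds the germ plasm, ovo (1.03), spir (0.67) and BicD (0.65). nanos differed by 0.36 at 0-2 hours, 1.27 at 4-6 hours and 1.77 at 8-10 hours. swa and exu, whose products act on bcd mRNA, had differences of 1.02 and 1.05 that did not pass (adjusted p = 0.0537 and 0.0807). 18 of the 19 differences were above 0, the exception being wun2 at -0.18.

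Without EDTA this list had a median difference of -0.70, and 9 of 19 members were higher with EDTA than without it in the test of the change while 1 was lower, beside 14.7% and 20.4% of all probe sets. nanos, orb and tud had untreated differences of -1.82, -1.59 and -1.24, and the changes of 2.96, 3.06 and 2.36 passed. These mRNAs were thus relatively light without EDTA and relatively heavy with it. BicD and spir, by contrast, had untreated differences of 1.35 and 0.73 and did not pass.

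mRNAs for translational repressors and other mRNA-binding proteins were heavier in 9 of 23 cases, beside 10.2% of all probe sets, with a median of 0.31. BicC, a KH-domain repressor active in the ovary, had the largest difference at 1.95 and varied widely, with 0.54, 2.48 and 2.85 over the periods. pum (0.89), egl (0.70), Edc3 (0.71), smg (0.63), pcm (0.56), brat (0.56) and pAbp (0.48) were also heavier, as was nej (1.18), which encodes a chromatin acetyltransferase and sits in the list for no role in mRNA control. stau, whose Staufen protein binds bcd and osk mRNA, was lighter, at -0.59 (adjusted p = 0.0487). The stau levels in fractions 1-5 were 9.55, 10.62 and 10.35, and in fractions 10-12 they were 9.16, 9.70 and 9.88, lower within every gradient.

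The piRNA pathway silences transposons in the germ line. Of its 25 tested mRNAs 7 were heavier and none lighter, beside 10.2% of all probe sets heavier, with a median of 0.51. They were tud, SoYb (1.03), spn-E (1.01), BoYb (0.95), qin (0.92), shu (0.81) and AGO3 (0.68), most of them encoding Tudor-domain proteins of the germ line granule. Early zygotic patterning genes gave another picture, with a median of -0.02 and 1 of 20 heavier, slam at 0.86, which acts in cellularisation. Of the cyclins, 0 of 10 passed.

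Among all lists, the highest median was that of a list named cytoskeletal and membrane giants, which also holds poe and mTor. In it 18 of 24 tested mRNAs were heavier, beside 10.2% of all probe sets. None was lighter, and the median was 1.01. shot, a spectraplakin that links actin and microtubules, had levels in fractions 1-5 of 7.73, 8.93 and 9.21 and in fractions 10-12 of 9.12, 11.45 and 11.53. The heavy pool was higher in each gradient, by 1.39, 2.51 and 2.32, and the mean was 2.08 ± 0.23 (adjusted p = 0.00799).

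The others of this list included poe (1.77), sls (1.75), the titin-like protein of muscle, kug (1.73), an atypical cadherin, Dhc64C (1.72), the heavy chain of cytoplasmic dynein, ds (1.44), kst (1.41), cher (1.31), the fly filamin, alpha-Spec (1.29), stan (1.17), mTor (1.09) and beta-Spec (0.88). kug and poe were even across the periods, at 1.89, 1.74 and 1.57 and at 1.61, 1.72 and 1.96. dpy, which encodes a giant matrix protein, differed by 0.05 at 0-2 hours and by 3.21 and 2.74 later, and did not pass (adjusted p = 0.0659). Ank2 had a difference of -0.06 in its brightest probe set and of 0.87 and 0.57 in the other tested ones, and none of the 3 passed.

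mRNAs of the basement membrane and its receptors were heavier in 10 of 17 cases, beside 10.2% of all probe sets, with a median of 0.89. They covered the laminin chains LanA (1.36), LanB1 (0.98) and LanB2 (0.52), both collagen IV chains, Col4a1 (1.29) and vkg (1.10), the proteoglycan-like papilin Ppn (1.94), nidogen (Ndg, 0.62) and the integrins mew (1.04), scb (0.68) and mys (0.63). Col4a1 differed by 0.31 at 0-2 hours and by 1.89 and 1.66 at the later periods. SPARC, a small collagen-binding protein, had a difference of -0.24 that did not pass (adjusted p = 0.385).

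Chromatin regulators showed 10 of 23 heavier and none lighter, beside 10.2% of all probe sets heavier, with a median of 0.50. kis, a chromodomain helicase, had the largest difference at 1.49 and was highest at 0-2 hours (1.95, against 1.46 and 1.05). nej (1.18), E(bx) (1.17), osa (1.17), trx (1.13), Kdm5 (1.01), e(y)3 (0.81), brm (0.77), tna (0.70) and Mi-2 (0.65) followed. gpp, the histone methyltransferase grappa, lay outside this list and differed by 2.64, 2.67 and 1.15, for a mean of 2.16 ± 0.31 (adjusted p = 0.0134).

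Among the other genes of largest difference, mask, which encodes an ankyrin repeat protein, and HUWE1, a ubiquitin ligase, were the most even. mask had levels of 9.13, 10.04 and 9.37 in fractions 1-5 and of 10.97, 12.18 and 11.57 in fractions 10-12, so that its pools did not overlap even across periods, and its mean was 2.06 ± 0.13. HUWE1 rose from 8.54, 8.78 and 9.07 in the light pool to 10.60, 11.16 and 11.01 in the heavy one, a mean difference of 2.13 ± 0.14. Both had an adjusted p of 0.00624, as bcd had.

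bt, which encodes the giant muscle protein projectin, had levels in fractions 1-5 of 3.30, 4.57 and 5.68 and in fractions 10-12 of 4.76, 8.04 and 10.05. The heavy pool was higher in each gradient, but both 0-2 hour levels were close to that period's array medians of 4.59 to 4.67 or under them, so the difference of 1.47 there rests on a dim signal. The mean was 3.10 ± 0.50 (adjusted p = 0.0172). In the muscle list, bt and Zasp52 (0.81) were 2 of 10 heavier, beside 10.2% of all probe sets, with a median of 0.36. In the list of neurons and glia, Appl (1.35), elav (1.11) and pros (0.59) were 3 of 8 heavier. That list had a median of 0.16, with 5 of 8 differences above 0 and brp lowest at -0.16. Appl was dim at 0-2 hours too, with levels of 3.78 in fractions 1-5 and 4.11 in fractions 10-12.

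Several other leading genes were likewise dim at 0-2 hours. Ten-a, a teneurin of the cell surface, differed by 1.47, 2.56 and 2.67, CadN, the neural cadherin, by 1.15, 2.62 and 2.37, lap, a clathrin adaptor, by 0.45, 3.12 and 2.63, and Gld2, a cytoplasmic poly(A) polymerase, by 0.65, 2.88 and 2.81. Their levels in fractions 1-5 at 0-2 hours were 4.32, 3.99, 3.53 and 4.86. Spn (2.57), rg (2.17), Apoltp (1.97), ftz-f1 (2.15) and CG13185 (2.35) completed the heavier genes named by the rule. Of these ftz-f1, a nuclear receptor that is supplied by the mother, had a level of 7.94 in fractions 1-5 and of 10.39 in fractions 10-12 at 0-2 hours, and Spn, the scaffold spinophilin, 6.74 and 9.62.

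**Figure D2:**
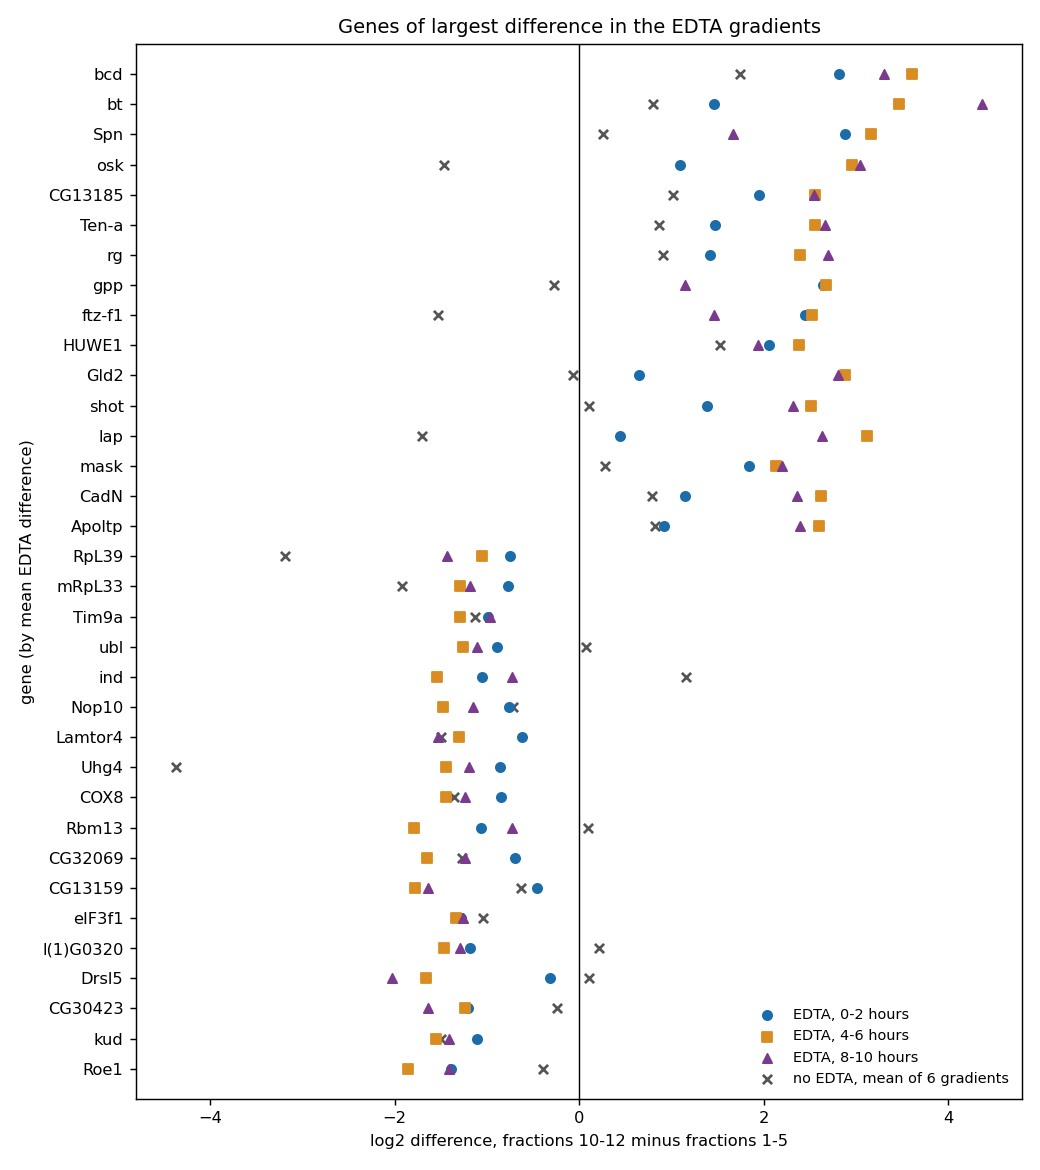
Log2 difference of fractions 10-12 minus fractions 1-5 (horizontal axis) for the 16 heavier and 18 lighter genes of largest mean difference (vertical axis), with 1 coloured point per EDTA gradient and a cross for the mean of the 6 untreated gradients. The EDTA points of a gene lie on 1 side of 0, as the rule for naming these genes required, from 0.45 for lap at 0-2 hours upward in the heavier genes. The crosses, which had no part in that rule, lie on either side, as for osk at -1.47 and bcd at 1.75.

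The lighter mRNAs of largest difference included genes of mitochondria, of ribosomes and of initiation factor eIF3. Roe1, a mitochondrial co-chaperone, had levels of 10.83, 8.60 and 8.91 in fractions 1-5 and of 9.45, 6.74 and 7.50 in fractions 10-12. The heavy pool was lower in each gradient, by 1.39 to 1.85, and the mean was -1.55 ± 0.14 (adjusted p = 0.00704). Among the other named genes were kud (-1.36), CG30423 (-1.36), l(1)G0320 (-1.31), CG13159 (-1.29), CG32069 (-1.20), Rbm13 (-1.19), Lamtor4 (-1.15), Nop10 (-1.13), ubl (-1.09) and Tim9a (-1.08). Drsl5, an antimicrobial-type peptide, differed by -0.31, -1.66 and -2.03.

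Of 53 nuclear-encoded subunits of the respiratory chain and ATP synthase, 30 were lighter and none heavier, beside 4.07% of all probe sets lighter, with a median of -0.55. COX8, a subunit of cytochrome c oxidase, had levels of 11.51, 12.00 and 11.77 in fractions 1-5 and of 10.66, 10.56 and 10.53 in fractions 10-12, which did not overlap even across periods (mean -1.18 ± 0.15, adjusted p = 0.0106). ND-MNLL (-1.08), ND-MLRQ (-1.04) and UQCR-6.4 (-1.03) were the next. UQCR-11 was the exception above 0, at 0.34, and did not pass (adjusted p = 0.113).

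Some ribosomal protein mRNAs were lighter too. Of 32 cytosolic ones, 8 were lighter and none heavier, beside 4.07% of all probe sets lighter. All 32 differences were below 0, and the median was -0.34. RpL39 had levels of 13.13, 13.20 and 13.13 in fractions 1-5 and of 12.38, 12.15 and 11.69 in fractions 10-12, for a mean of -1.08 ± 0.16 (adjusted p = 0.0141). The levels of this group lay close to the top of the scale, with a median of 12.9 where the highest value of the series was 14.3. Of 69 mitochondrial ones, 16 were lighter and none heavier, beside the same 4.07%, with a median of -0.41 and mRpL33 the farthest at -1.08.

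Of 36 tested translation factors, 7 were lighter and 2 heavier, and most had no call. The differences of 13 were above 0. The 7 lighter ones were all subunits of eIF3, the complex that brings mRNA to the small subunit: eIF3f1 (-1.29), eIF3g1 (-0.85), eIF3e (-0.81), eIF3l (-0.65), eIF3h (-0.62), eIF3k (-0.59) and eIF3d1 (-0.57). eIF3f1 differed by -1.28, -1.33 and -1.27, the narrowest range among the lighter named genes. The 2 heavier ones encoded the large scaffolds eIF4G2 (1.51) and eIF4G1 (1.13). Over the 36 factors the median was -0.13, and of all probe sets 4.07% were lighter and 10.2% heavier.

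The remaining lists had few calls, beside 10.2% heavier and 4.07% lighter among all probe sets. Of 26 proteasome mRNAs 1 was heavier, Rpn2 at 0.62, and 1 lighter, Prosalpha4 at -0.48. Heat shock genes (0 of 11 called, median 0.14), tubulins and actins (0 of 8, 0.02), eggshell and yolk proteins (0 of 10, -0.09) and histone genes (0 of 3, -0.12) had no call, and hemocyte markers had 1 of 6, crq at 0.54. Of 9 glycolytic enzymes Hex-A was heavier, at 1.32, all 9 differences were above 0 and the median was 0.40. In the list of noncoding RNAs 13 of 88 could be tested, and in that of seminal fluid genes, which includes the cuticle gene Acp65Aa, 3 of 21. Neither list had a call. Uhg4, a noncoding RNA outside the first of them, was lighter at -1.17.

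**Figure D3:**
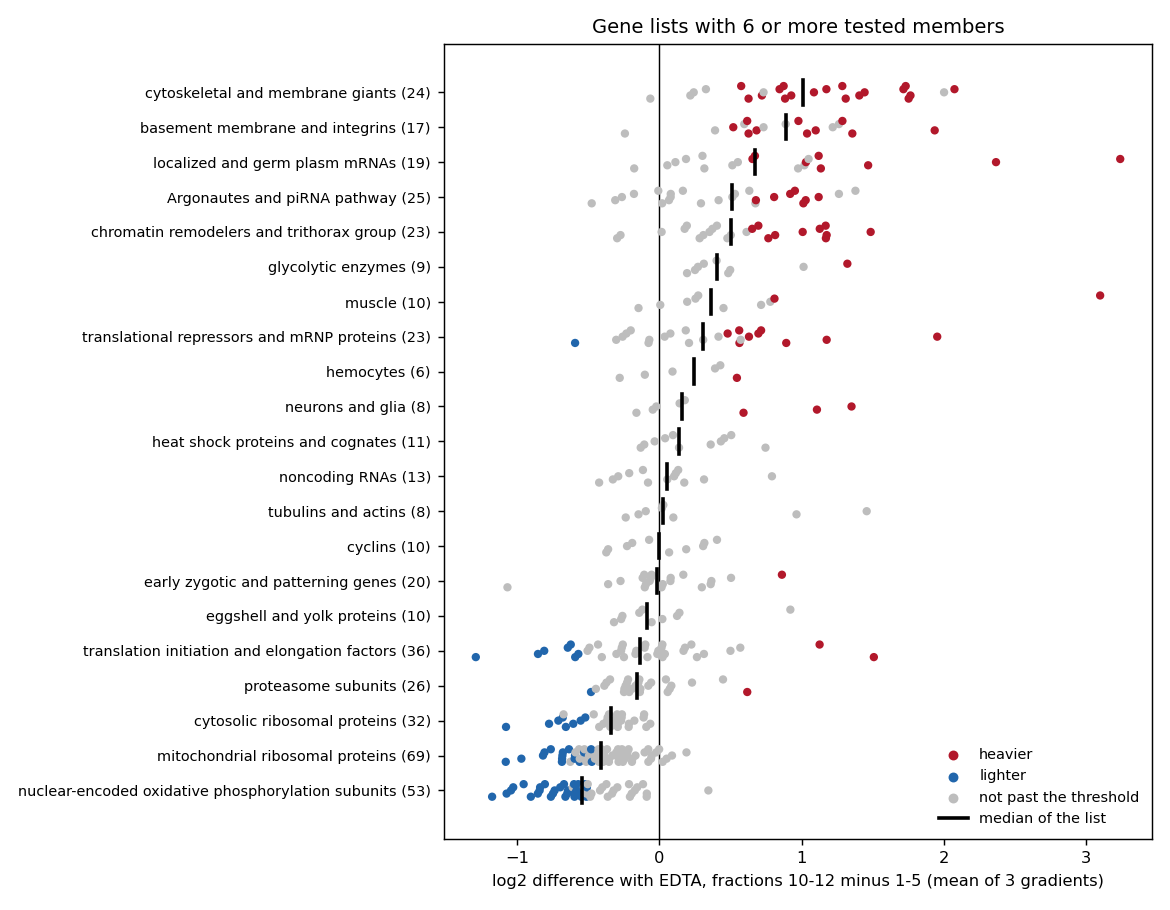
Mean log2 difference with EDTA (horizontal axis) of the tested members of each gene list with 6 or more of them (vertical axis, number in brackets), 1 point per gene, coloured by call, with a bar at the list's median. Medians run from -0.55 for subunits of oxidative phosphorylation to 1.01 for cytoskeletal and membrane giants.

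Leaving out a gradient changed these counts but not the sign of the larger medians. The counts over all 9384 probe sets moved too, from 961 heavier and 382 lighter. Without the 8-10 hour gradient 309 of all probe sets were heavier and 56 lighter. In that setting the giants had 11 heavier, chromatin regulators 7, basement membrane 4, localised mRNAs 3, the piRNA pathway 2 and the repressors 1. Lighter were 3 respiratory and 1 each of the cytosolic and mitochondrial ribosomal mRNAs. Without the 4-6 hour gradient all lists had 0, as had all probe sets. Quantile normalising again gave 605 heavier and 524 lighter among all probe sets. It left 15 giants heavier, 5 localised, 4 piRNA and 3 repressor mRNAs, and raised the lighter mitochondrial ribosomal mRNAs to 32.

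Heavier and lighter genes differed in the span of the gene, the distance from first to last annotated base with introns, taken from RefSeq's annotation. This is not the length of the mRNA, and it had no part in the calls. The median span was 10111 bases for heavier genes, 1066.5 for lighter ones and 2729 for all 7283 tested. Genes under 1000 bases made up 10.8% of those tested, 0.138% of the heavier (1 gene) and 47.0% of the lighter. Genes over 20000 bases made up 8.46%, 27.5% and 0.993%.

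In deciles of the tested genes by span, the median difference rose step by step from -0.35 in the shortest to 0.37 in the longest. The heavier share grew from 0.138% to 31.9% and the lighter share fell from 18.8% to 0.413%. The rise was present in each period, from -0.17 to 0.29 at 0-2 hours, -0.54 to 0.43 at 4-6 hours and -0.39 to 0.37 at 8-10 hours. Without EDTA the medians rose from -0.17 in the shortest decile to 0.35 in the sixth and were lower again beyond it, with 0.16 in the longest. bcd and osk had spans of 3625 and 3270 bases, in deciles of which 12.2% and 4.42% were heavier. Because the lists of giants and of small mitochondrial proteins differ in span as well, their counts and the span cannot be told apart here. The same limit applies to the other lists and to single genes, as span was not separated from the calls in any of them.

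**Figure D4:**
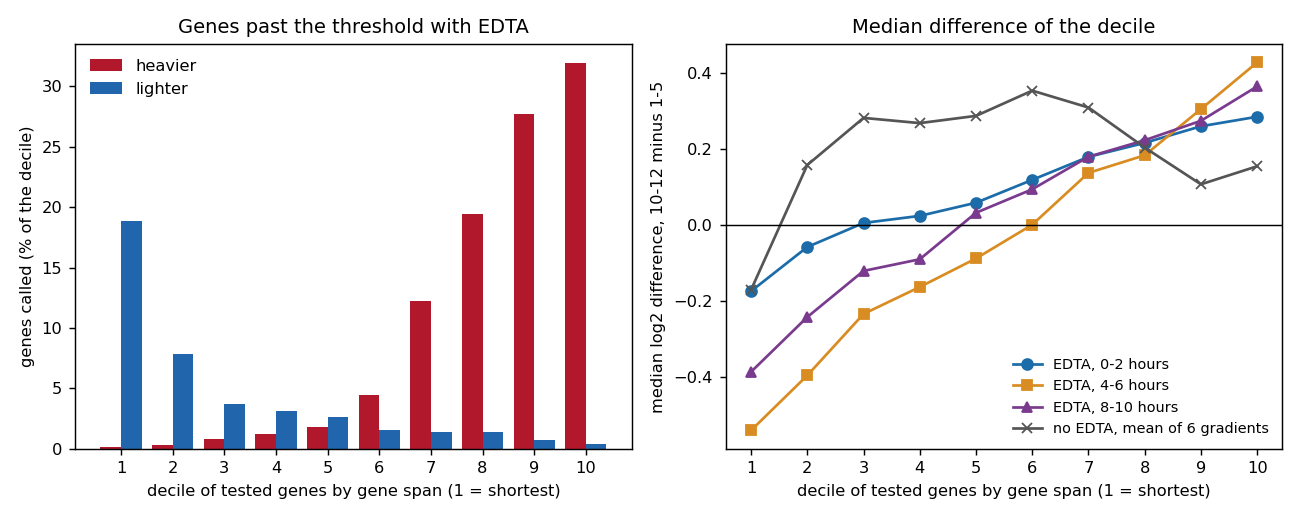
Left, percentage of genes heavier and lighter with EDTA (vertical axis) in each decile of the tested genes by gene span (horizontal axis). Right, median log2 difference of each decile in the 3 EDTA gradients and over the 6 untreated gradients; with EDTA it rises from -0.35 to 0.37 over the deciles for the mean of the 3 gradients.

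The same difference was measured in the 6 untreated gradients, where ribosomes were on. Of the 9384 probe sets 3840 were heavier there, which is 40.9%, and 2811 lighter, which is 30%. Of the 961 heavier with EDTA, 488 were also heavier without it, 218 were lighter and 255 were neither. Of the 382 lighter with EDTA, 231 were lighter without it, 76 heavier and 75 neither. In the direct test of EDTA minus untreated, 1376 probe sets were higher with EDTA, or 14.7%, and 1919 lower, or 20.4%. Since this test uses the same EDTA gradients as the calls, the overlap of both is not independent.

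Counted by gene, 146 of the 727 heavier genes, or 20.1%, were lighter without EDTA, against 27.8% of all tested genes. osk, lap and ftz-f1 were among them. lap had a mean untreated difference of -1.70 and a change of 3.77 (adjusted p = 0.00359), and ftz-f1 one of -1.53 and a change of 3.67 (adjusted p = 0.00184). A second ftz-f1 probe set was also called heavier with EDTA, at a smaller mean difference of 0.93 (adjusted p = 0.0443). By period the untreated difference of ftz-f1 was -2.44, 0.62 and -2.75, so at 4-6 hours it was not light. HUWE1 was heavy in both, with 1.53 without EDTA and 2.13 with it, and the change of 0.60 did not pass (adjusted p = 0.275).

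The opposite case, lighter with EDTA and heavier without it, was met in 65 of 302 lighter genes, or 21.5%, against 44.3% heavier without EDTA among all tested genes. ind, a homeobox gene of the neuroectoderm, went from 1.16 without EDTA to -1.11 with it, a change of -2.27 (adjusted p = 0.00165). RpL39 and Uhg4, a host gene of small nucleolar RNAs, were lighter in both but by far less with EDTA. Uhg4 differed by -3.02, -4.70 and -5.38 in the untreated gradients of the 3 periods and by -0.86, -1.45 and -1.20 with EDTA. For the cytosolic ribosomal list the untreated median was -1.90, and 27 of 32 were higher with EDTA than without, beside 14.7% of all probe sets.

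**Figure D5:**
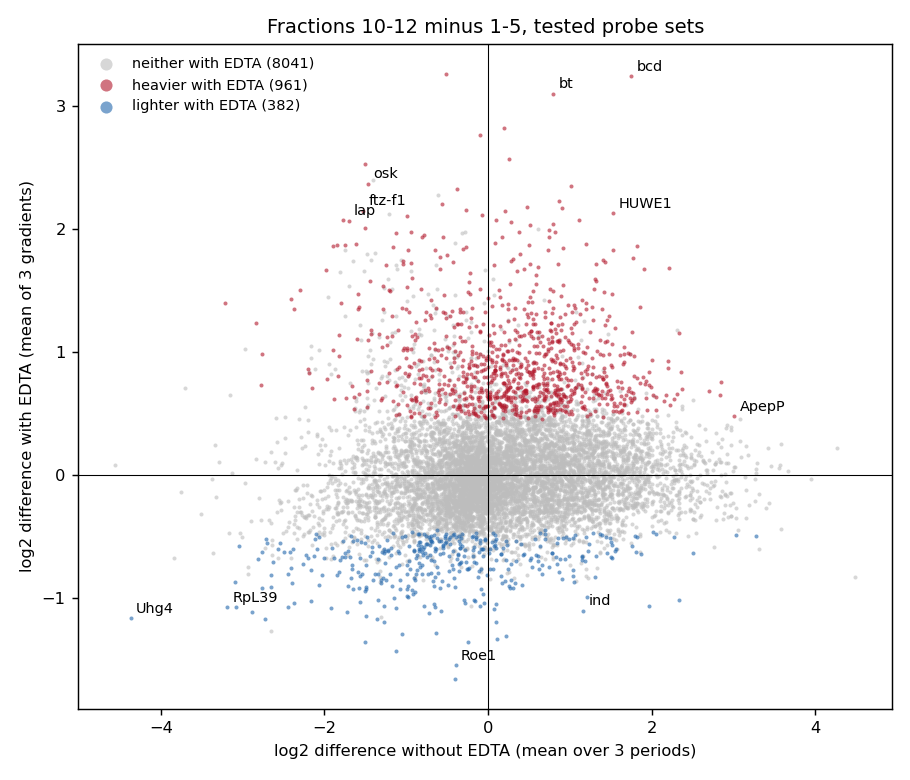
Mean log2 difference of fractions 10-12 minus 1-5 for the 9384 tested probe sets with EDTA (vertical axis, 3 gradients) and without it (horizontal axis, 6 gradients), coloured by the call with EDTA. The 961 heavier and 382 lighter probe sets lie on both sides of 0 on the horizontal axis, with Uhg4 at the far left (-4.37).

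Other mRNAs named by the rule had smaller differences. The mRNA of alpha-Cat, a protein of cell adhesion, had untreated differences of 2.33, 1.92 and 1.59 and EDTA differences of 0.46, 0.44 and 0.36, and the change of -1.52 passed (adjusted p = 0.00165). ApepP fell from 4.07, 4.51 and 0.45 to 0.55, 0.47 and 0.41 and was still called heavier (mean 0.48, adjusted p = 0.046). cad (0.55), hb (0.11), Pngl (0.28), fat-spondin (0.36), CycT (0.19) and Fen1 (0.06) did not pass.

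Probe sets of 1 gene did not always share a call. Of 463 genes with several tested probe sets, 174 had at least 1 call, in 36 of them all probe sets had the same call, and in 2 the calls were opposite. gpp had 2 heavier probe sets (2.16 and 0.74) and 1 that did not pass (0.35), and Spn had differences of 2.57, 0.93 and 0.79, of which the last did not pass.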

How the data were processed

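Soluble extracts of embryos were fractionated on sucrose gradients and RNA was hybridised to Affymetrix Drosophila Genome 2.0 arrays. The authors deposited log2 values made by RMA for 18952 probe sets, and per their methods equal volumes of RNA were labelled. Of 18769 probe sets that are not controls, 13647 had 1 gene symbol in the platform table, and 9384 with a mean over the 12 EDTA arrays above the median were tested. Differences within gradients entered a two-sided test by limma (version 3.58.1, R version 4.3.3) with Benjamini-Hochberg adjustment over all tested probe sets and a threshold of 0.05. Pairing follows from both pools coming from 1 gradient, and without this replicate block 0 probe sets were heavier and 0 lighter. For untreated gradients the heavy value was the log2 mean linear signal of fractions 10, 11 and 12.

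A gene was represented by its brightest probe set. Named by rule were the 8 genes of largest difference per direction, further ones until 15 without a CG number, list members past the threshold or at a list's ends, and mRNAs the study shows or names. RpL36 and CycG were not analysed here. The comparison, lists and names were chosen with earlier results of these data known. The script was tested on simulated data. No sequences were used here. The number of arrays limits the precision.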

Additional observations from a re-analysis of the deposited data

Results flagged for a closer look

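For 22 of the 34 genes of largest EDTA difference, the difference of fractions 10-12 minus 1-5 changed between EDTA and untreated gradients in the direct limma test. Of all tested probe sets, 14.7% were higher with EDTA in that test and 20.4% lower. Values are log2, EDTA minus untreated. Among heavier genes the change was 3.84 for osk, 3.77 for lap, 3.67 for ftz-f1, 2.43 for gpp, 2.31 for Spn, 2.30 for bt, 2.18 for Gld2, 1.97 for shot, 1.78 for mask, 1.36 for Ten-a, 1.33 for CG13185, 1.27 for rg and 1.25 for CadN. Each of these 13 was upward.

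Among lighter genes it was -2.27 for ind, -1.53 for l(1)G0320, -1.44 for Drsl5, -1.29 for Rbm13, -1.16 for Roe1, -1.16 for ubl and -1.12 for CG30423. Uhg4 and RpL39 changed upward, by 3.20 and 2.11, since they were lighter still without EDTA. The genes were chosen by their EDTA difference, which is 1 side of this test, so the direction of the change is partly fixed by the choice.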

How the results depend on the processing

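Fitting all 12 EDTA arrays gave 398 heavier and 65 lighter probe sets, and without the replicate block, which pairs the pools of a gradient, 0 and 0 (324 with an unadjusted p under 0.05). The re-normalised arrays gave 605 heavier. Among the brightest 25% of probe sets 578 of 4692 were lighter, against 382 of 9384 in the main fit. Leaving out 1 gradient gave 0 to 977 heavier and 0 to 484 lighter. Without the array of fractions 6-7 at 8-10 hours, an alternative chosen after seeing the data, the fit of the other EDTA arrays gave 1093 and 554. With no filter, 4308 of 18769 probe sets were lighter untreated, against 2811 of 9384 with it, so the count rose while the share fell. The cause of these shifts was not tested. Counts of EDTA minus untreated stayed within 1.5 times of 1376 and 1919 in each alternative, and leaving out the replicate block gave 1191 and 1707. Of 45 named genes, the 38 with a call all lost it without the 4-6 hour gradient, and all lost it without the block. The other 7 had no call to lose. Fen1 turned to -0.0315 after re-normalising and ranged from -0.0708 to 0.163 when 1 gradient was left out. Dim signal limits genes such as bt at 0-2 hours.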

Other observations

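In 2 genes the probe sets had opposite calls, and both were looked at after their values were seen. lilli, which encodes a nuclear protein of the AF4 family, had 1 probe set at 0.54, 1.13 and 0.61 over the periods, heavier, and 1 at -0.58, -1.46 and -1.02, lighter. mod(mdg4), a chromatin gene with many alternative transcripts, had 1 heavier probe set at 0.46 and 1 lighter at -0.45, with adjusted p of 0.0497 and 0.0499.

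The largest heavier difference of any probe set was in PMCA, a calcium pump of the plasma membrane, in a probe set that was not the brightest of that gene. It differed by 2.01, 4.33 and 3.43 with EDTA (mean 3.26, adjusted p = 0.00982) and by -0.51 on average without it. Of the 12 probe sets with the largest heavier difference, 4 had no gene symbol here, the highest with a mean difference of 2.82.

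Genes of chromosome 4, which is small and largely heterochromatic, were heavier in 13 of 43 tested cases, or 30.2%, against 8.21% to 12.9% on the other arms. Their median gene span was 10484 bases, against 2623 to 3043.5 elsewhere. Whether the share follows the span was not tested.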
